A study of Mus musculus with 9 samples.

Results

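The 10 genes described here act in the formation or removal of lipid peroxides and other oxidants: Gpx4, Acsl4, Slc7a11, Slc3a2, Gclc, Gclm, Nqo1, Hmox1, Txnrd1 and Srxn1. They were chosen by name: the ferroptosis regulators Gpx4 and Acsl4, genes that supply the glutathione of Gpx4, and known targets of the transcription factor NRF2. All 10 were among the 23337 genes counted. RNA was sequenced from CD11b+ bone marrow cells of 9 C57BL/6 mice, 3 per group. The cells were taken from the marrow of femurs and tibias by magnetic positive selection, after lysis of red blood cells. All groups received tail vein injections of 100 µl on days 1, 3 and 5. In the PBS group these held PBS only, and in the EnzR EVs group they held 10 µg of protein of extracellular vesicles (EVs) from enzalutamide-resistant CWR-R1 cells, a human prostate cancer line. The EnzR EVs + HDL NPs group received the same EVs, preceded by injections of HDL NPs on days 0, 2 and 4. HDL NPs are synthetic particles modelled on high-density lipoprotein, given to lower the cholesterol of myeloid cells before the EVs arrived; the labels give them at 1 µM, and the study's methods state another dose. No group received HDL NPs without EVs, and EVs from normal prostate cells were not among these libraries. The study's methods state that its C57BL/6 mice were male and give an age range in weeks. The labels give no age and no cage or batch, so p-values measure the spread between these 9 mice as labelled.

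Ferroptosis is a form of cell death driven by iron and by peroxides of membrane phospholipids. Gpx4, a selenium-containing glutathione peroxidase, reduces these peroxides, and Acsl4 supplies the polyunsaturated phospholipids that form them. Glutathione synthesis depends on cystine, which enters cells through a transporter made of Slc7a11 and Slc3a2. NRF2, encoded by Nfe2l2, is held down by KEAP1 and, under oxidative stress, switches on Gclc, Gclm, Nqo1, Txnrd1, Srxn1, Slc7a11 and Hmox1; BACH1 represses several of the same genes, Hmox1 most of all. In bone marrow, macrophages use HMOX1 to break down the heme of red blood cells.

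None of the 10 genes differed between groups after adjustment over all genes tested, and 3 of them set the EnzR EV mice apart from at least 1 other group: 1 of 10 from PBS, where 7.96% of all genes did so, and 3 of 10 from EnzR EVs + HDL NPs, where 17.6% did. Under TMM scaling, Txnrd1 was higher in all 3 EnzR EV mice than in any other mouse. Slc7a11 and Hmox1 were lower in all 3 EnzR EV mice than in any EnzR EVs + HDL NPs mouse, and lower than in PBS replicates 2 and 3, while PBS replicate 1 lay within their range. Between EnzR EVs + HDL NPs and PBS no gene of the 10 separated the mice.

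Libraries differed in depth and composition, which bears on all of these results. Totals ranged from 2575776 counts (EnzR EVs replicate 1) to 18110561 (EnzR EVs replicate 2). The ribosomal RNA gene Rn45s took 20.3% of counts in PBS replicate 1, 42.7% in EnzR EVs replicate 1 and 14.2% in EnzR EVs replicate 3, and between 0.657% and 2.87% in the other 6. These 3 libraries were also the shallowest, and since 2 of them are EnzR EV mice, results are also given without all 3, which leaves EnzR EVs replicate 2 alone in its group. Levels below are CPM, the count of a gene relative to the total of its library, scaled by TMM factors (TMM CPM), which set the bulk of genes equal between libraries. Itgam, which encodes CD11b, was at 1389 to 2006 TMM CPM over the 9 libraries. The summed level of 11 neutrophil and granulocyte genes was 29952 to 64219 in the 3 libraries rich in Rn45s and 79480 to 142095 in the other 6. That of 10 monocyte genes was lowest in EnzR EVs replicates 1 and 3 (2293 and 2986) and 3180 to 4320 in the others. Of 10 erythroid genes counted, which together reached at most 363, Hba-a1 and Hba-a2 were at 0 throughout. The beta-globin gene Beta-s was at 13.2 to 277 TMM CPM, and why Hba-a1 and Hba-a2 had no counts was not tested. In such bulk samples fewer cells of a type cannot be told apart from less RNA per cell.

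NRF2 binds the antioxidant response element, whose core is TGACNNNGC. The core was searched on both strands of the RefSeq promoter windows (GRCm38.p6, 250 bases before to 50 bases after a start), which were at hand for 8 of the 10 genes; Gclc and Hmox1 had no entry. It was found for Gclm, Srxn1 and Txnrd1, against 14.0% of 27025 genes with a window. These matches are shown as the sequence context of genes compared below, and no binding was measured here. Sequences run 5′ to 3′ on the strand of the gene, and the capitals mark the core, which reads on the opposite strand.
Gclm, chr3:122245413-122245441, 134 bases before the start: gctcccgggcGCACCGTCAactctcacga
Txnrd1, chr10:82859104-82859132, 92 bases before the start of 1 of its 3 windows: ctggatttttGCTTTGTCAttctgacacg
Srxn1, chr2:152105542-152105570, 28 bases after the start: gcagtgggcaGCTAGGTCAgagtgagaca
The Srxn1 window also held the AP-1 motif TGACTCA 2 times, a motif present in 5.95% of genes with a window, which is printed in capitals in its opposite-strand form.
Srxn1, chr2:152105412-152105438: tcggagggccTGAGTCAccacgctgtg
Srxn1, chr2:152105469-152105495: aaattcacccTGAGTCAgcggccgggc
No core of these letters lay in the windows of Gpx4, Acsl4, Slc7a11, Slc3a2 or Nqo1, which says nothing of sites elsewhere.

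Divided by transcript length, the 10 genes kept the same order of mean level in all 3 groups. Hmox1 was the highest, at 109 ± 54.1 TMM CPM per kb in PBS mice (SD, n = 3), followed by Txnrd1 at 25.7 ± 0.641, and the ranges of these 2 did not overlap each other or the next gene in any group. Slc3a2 (21.1 ± 1.30 in PBS), Acsl4 (17.4 ± 4.94), Gpx4 (9.91 to 15.0), Slc7a11 (7.70 ± 3.50), Gclc (4.59 ± 0.353), Gclm (3.80 ± 1.11), Nqo1 (2.26 ± 1.47) and Srxn1 (1.75 ± 0.193) came next, and in PBS mice each of these overlapped its neighbour. The place of Gpx4 is uncertain: 55.3% of the 75-base windows of its 995-base transcript (509 of 921) also occur in the pseudogene Gpx4-ps2 or in the annotated gene AC122253.3, and how reads that match several genes were counted is not given in the sources used here. For Slc3a2 the share of such windows was 3.58% and for Slc7a11 0.929%, and the other 7 genes shared none.

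**Figure D1:**
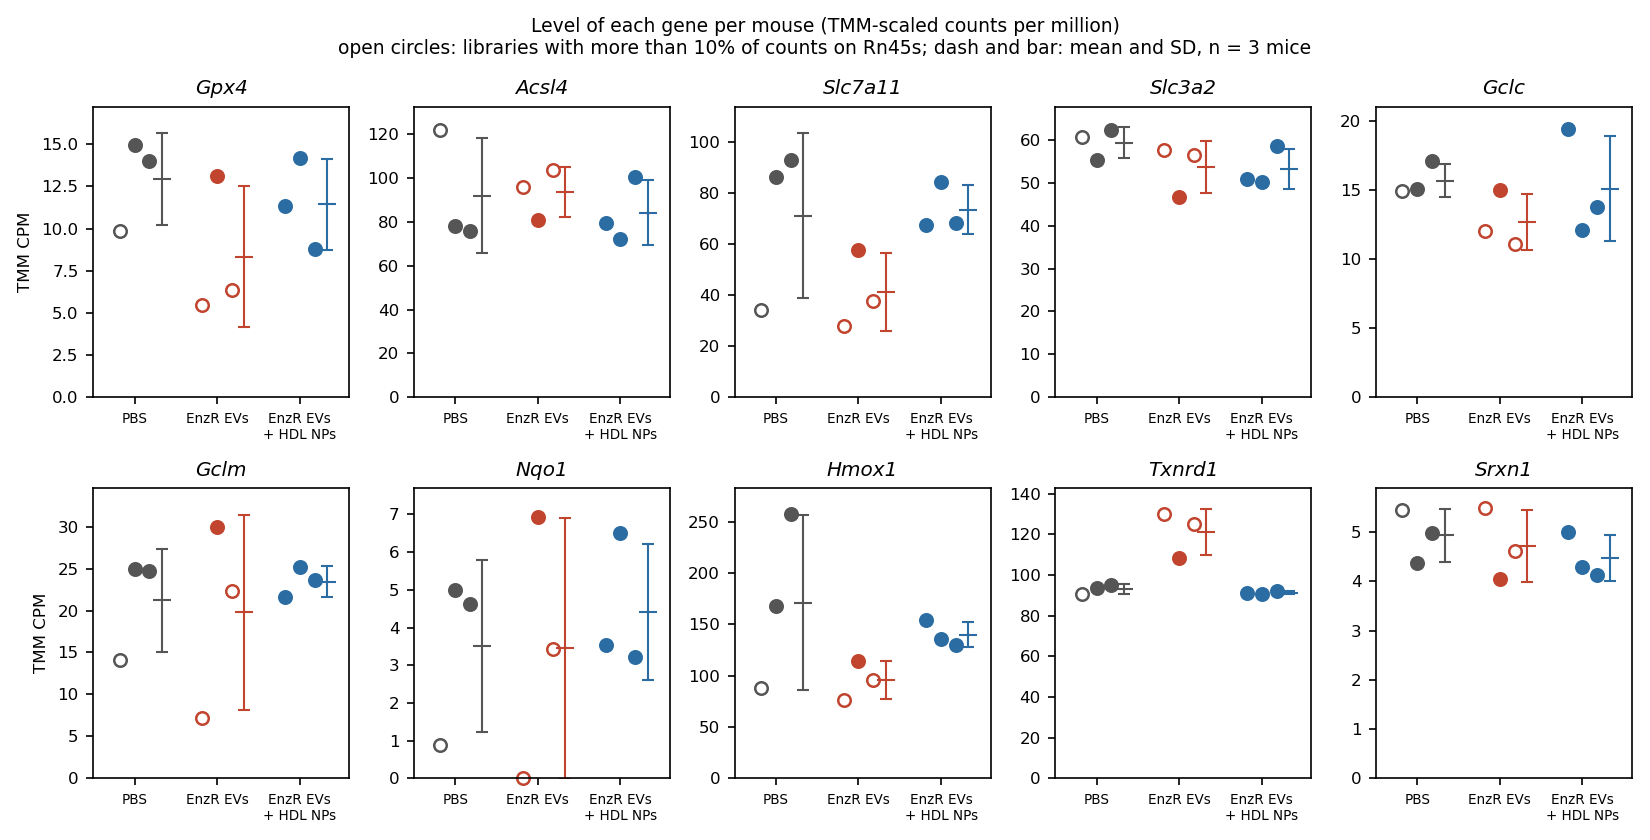
Level of each gene in each of the 9 mice, as TMM CPM on linear axes from 0, with the mean and SD beside each group of 3 (the lower SD bar of Nqo1 in EnzR EVs ends at the axis). Open circles mark the 3 libraries with more than 10% of counts on Rn45s. Txnrd1 lies between 108 and 130.0 in EnzR EV mice and between 90.4 and 95.3 in all others.

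EnzR EVs against PBS asked what repeated conditioning with tumour EVs did to these genes. At an adjusted p under 0.05 in edgeR's quasi-likelihood test, 0 of the 10 were called, and 0% of all 12553 genes tested were. DESeq2, with 0.0567% of its tested genes called, and limma voom called 0 of the 10 as well. At an unadjusted p under 0.05 edgeR had 2 of the 10 (Txnrd1 higher, Hmox1 lower), where 3.47% of all genes were under that value, 1.55% as higher and 1.92% as lower. Txnrd1 was the single member whose groups did not overlap, against 7.96% of all genes, 3.43% as higher. The median log2 fold change of the 10 was -0.13, with 7 below 0, beside -0.03 over all genes.

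Gpx4, on chr10:80047166-80056439 (GRCm38), measured 9.86, 15.0 and 14.0 TMM CPM in PBS mice, from 56 to 260 counts. In EnzR EV mice it measured 5.49, 13.1 and 6.38, from 10 to 247 counts. The groups overlapped, and the 3 lowest EnzR EV and PBS values came from the 3 libraries rich in Rn45s. The log2 fold change was -0.55 (SE 0.337, edgeR adjusted p = 0.928). It was -0.14 without those libraries, the smallest size under any setting tried, and -1.08 without EnzR EVs replicate 2, the largest. Acsl4 (chrX:142317993-142390535) measured 122, 77.8 and 75.9 in PBS and 96.0, 81.0 and 103 in EnzR EV mice. Its log2 fold change was 0.03 (95% interval -0.47 to 0.52), with no consistent direction across settings, and 0.080 without those libraries.

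Slc7a11 (chr3:49892526-50443614), the chain of the transporter that carries cystine, measured 34.0, 86.0 and 93.0 TMM CPM in PBS mice. In EnzR EV mice the values were 28.0, 57.8 and 37.8. PBS replicate 1 lay within the EnzR EV range and the other PBS mice above it. The log2 fold change was -0.76 (SE 0.359, edgeR unadjusted p = 0.0584, adjusted p = 0.928), and its exact permutation p was 0.3, where 0.10 is the smallest that 3 against 3 can give. The difference kept its direction without the 3 libraries, at -0.63, where EnzR EVs replicate 2 (57.8) stood alone against PBS replicates 2 and 3. Its partner Slc3a2 (chr19:8706882-8723369) was steady, at 55.2 to 62.2 in PBS and 46.7 to 57.6 in EnzR EV mice. Its log2 fold change was -0.15 (SE 0.158, edgeR adjusted p = 0.928) and -0.33 without those libraries, and its spread over the 9 libraries was among the lowest of all genes, at the 4.50th percentile.

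The 2 subunits of glutamate-cysteine ligase, the rate-limiting enzyme of glutathione synthesis, gave different patterns. Gclc (chr9:77754535-77794485), the catalytic subunit, measured 15.0, 15.1 and 17.1 TMM CPM in PBS and 12.1, 15.0 and 11.1 in EnzR EV mice. The highest EnzR EV value lay just above the lowest PBS value, and the log2 fold change was -0.29 (SE 0.232, edgeR adjusted p = 0.928), or -0.096 without the 3 libraries rich in Rn45s. Gclm (chr3:122245557-122270732), the modifier subunit, spread far more, with 14.1, 24.9 and 24.7 in PBS and 7.13, 30.0 and 22.3 in EnzR EV mice. Its lowest values were those of replicate 1 in both groups, the libraries with the most Rn45s, and its log2 fold change was -0.02 (SE 0.379), on the other side of 0 at 0.28 without those libraries. Exons of Gclm overlap another annotated gene on the same strand over 3.88% of their bases and on the opposite strand over 4.71%.

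Nqo1 (chr8:107388225-107403206), a quinone reductase often used as the marker of NRF2 activity, was low and the most variable of the 10. It measured 0.880, 5.00 and 4.63 TMM CPM in PBS mice and 0, 6.92 and 3.43 in EnzR EV mice. The value of 0 is a library with no count, in which the floor of 3 counts stands at 1.65 TMM CPM. Its interval ran from -1.34 to 1.71 on the log2 scale, so no difference was detectable at this depth; without the 3 libraries its log2 fold change was 0.53, against 0.18 with them. Nqo1 and Gclm varied together over the 9 libraries, with a Pearson r of 0.993 on the log2 scale. Both also followed the total count of the library (r = 0.967 for Nqo1 and 0.960 for Gclm on the log2 scale, n = 9), and within the 6 libraries low in Rn45s the r between them was 0.810.

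Hmox1 (chr8:75093621-75100589), heme oxygenase 1, measured 88.4, 168 and 258 TMM CPM in PBS mice. In EnzR EV mice it measured 76.8, 114 and 95.8. PBS replicate 1 lay inside the EnzR EV range, and the other PBS mice above it. The log2 fold change was -0.84 (SE 0.320, edgeR unadjusted p = 0.0251, adjusted p = 0.928), with an exact permutation p of 0.3. The value was -0.89 without the 3 libraries rich in Rn45s and -0.41 without PBS replicate 3. The summed level of all 12 listed marrow macrophage genes, none of them at 0, was 851 to 1539 TMM CPM in PBS, 662 to 813 in EnzR EV and 761 to 974 in EnzR EVs + HDL NPs mice, the last 2 overlapping. Of the 12, 11 were below 0 in EnzR EVs against PBS, C1qb being the exception, and 9 were above 0 in EnzR EVs + HDL NPs against EnzR EVs, C1qa, C1qb and Cd163 being below. The part of these markers in the Hmox1 result was not tested.

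Txnrd1 (chr10:82833951-82897712) encodes cytosolic thioredoxin reductase, a selenoprotein that keeps thioredoxin reduced. It measured 90.6, 93.5 and 95.3 TMM CPM in PBS mice, a narrow range, and 130.0, 108 and 125 in EnzR EV mice. All 3 EnzR EV mice lay above all 3 PBS mice. The log2 fold change was 0.38 (SE 0.140, edgeR unadjusted p = 0.0220, adjusted p = 0.928), with an exact permutation p of 0.10, the smallest possible. The separation depended on the scaling: it held under TMM, upper quartile and DESeq2 size factors, and not by library size alone, where the log2 fold change was 0.18. That last scaling moved the median of all genes to -0.18. Without the 3 libraries rich in Rn45s it was 0.20. Srxn1 (chr2:152105516-152111376), sulfiredoxin, which restores oxidized peroxiredoxins, was the lowest per length and steady, at 4.37 to 5.46 in PBS and 4.04 to 5.49 in EnzR EV mice. The difference was -0.11 on the log2 scale, and -0.20 without those libraries.

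**Figure D2:**
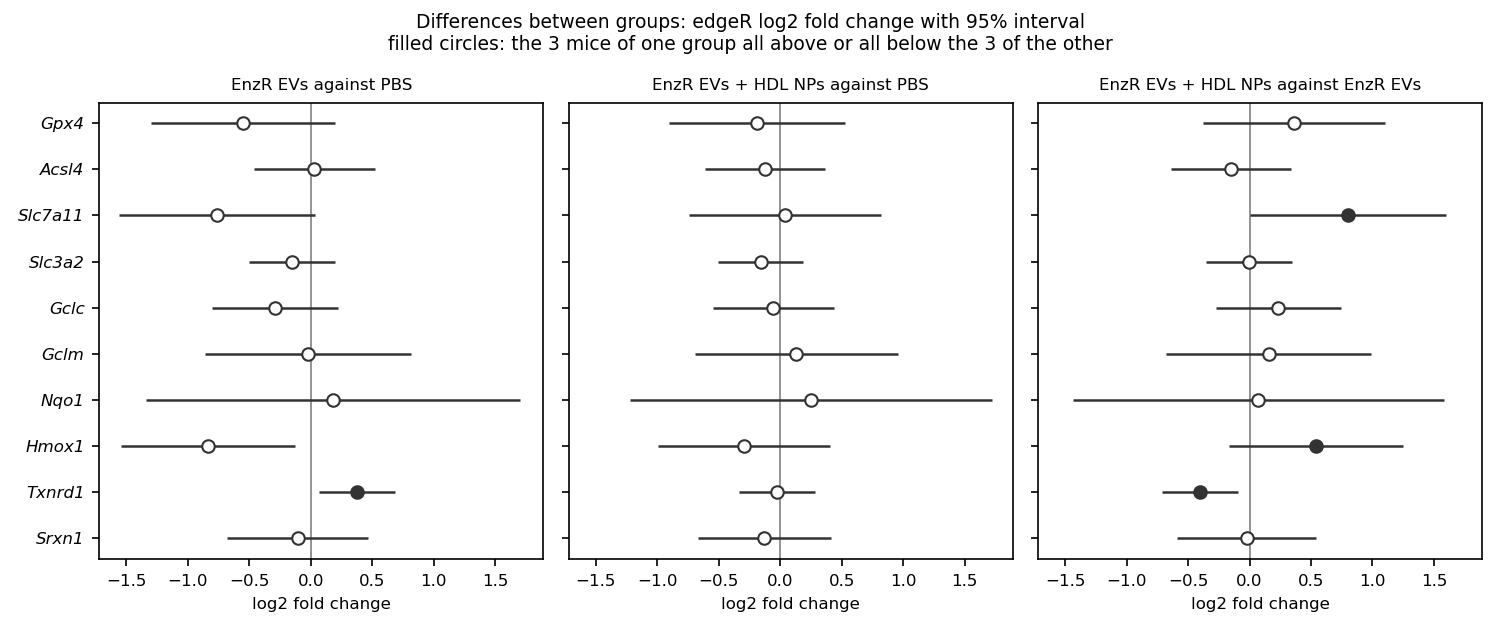
Differences between groups for the 10 genes: edgeR log2 fold changes (points) with 95% intervals (lines), in 1 panel per comparison. Filled points mark genes whose 3 mice of one group all lie above or all below the 3 of the other. Txnrd1 is filled on opposite sides of 0 in the comparisons that share the EnzR EV mice (0.38 and -0.40), and no point is filled in the comparison of EnzR EVs + HDL NPs with PBS.

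EnzR EVs + HDL NPs against PBS asked how far mice given both treatments stood from mice given PBS alone. No member was called (0% of all genes by edgeR, 0.0604% by DESeq2), none of the 10 was under an unadjusted p of 0.05 (2.13% of all genes), and none had groups that did not overlap (13.2% of all genes). Txnrd1 was almost level, at 91.3, 90.4 and 92.3 TMM CPM in EnzR EVs + HDL NPs mice against 90.6 to 95.3 in PBS. Its log2 fold change was -0.03, with a 95% interval from -0.34 to 0.28. Slc7a11 measured 67.5, 84.3 and 68.0, within the PBS range, with a log2 fold change of 0.04 (interval -0.74 to 0.82). Hmox1 measured 154, 136 and 130.3, also within the PBS range, and its log2 fold change was -0.30 (interval -0.99 to 0.40). Gpx4 measured 11.3, 14.2 and 8.80, with a log2 fold change of -0.19 (interval -0.91 to 0.52). For the remaining 6 genes the log2 fold changes ran from -0.16 (Slc3a2) to 0.25 (Nqo1). PBS replicate 1 is the 1 library rich in Rn45s in this comparison. Without such libraries Slc7a11 lay on the other side of 0, at -0.29, Hmox1 was at -0.60, Gpx4 at -0.34 and Txnrd1 at -0.046. Acsl4 (0.13), Gclm (-0.078) and Nqo1 (-0.12) also lay on the other side of 0, and Slc3a2 (-0.14), Gclc (-0.085) and Srxn1 (-0.060) did not.

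EnzR EVs + HDL NPs against EnzR EVs asked what prior HDL NPs changed in mice given the EVs. This comparison shares its EnzR EV mice with the first, so a low or high EnzR EV value enters both. No member was called by edgeR (0% of all genes) or by DESeq2 (0.00532%). Txnrd1 and Slc7a11 were under an unadjusted p of 0.05, as were 10.6% of all genes, 3.58% as higher and 6.97% as lower. Groups did not overlap for 3 of the 10, Txnrd1 (lower), Slc7a11 and Hmox1 (higher), where 17.6% of all genes did not overlap, 8.99% as higher and 8.58% as lower. The median log2 fold change of the 10 was 0.11, beside 0.03 over all genes.

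Txnrd1 measured 90.4 to 92.3 TMM CPM with HDL NPs and 108 to 130.0 without. Its log2 fold change was -0.40 (SE 0.140, edgeR unadjusted p = 0.0153, adjusted p = 0.461), which became -0.25 without the 3 libraries rich in Rn45s and -0.16 by library size alone, where the groups overlapped. Slc7a11 measured 67.5 to 84.3 with HDL NPs and 28.0 to 57.8 without. Its log2 fold change was 0.80 (SE 0.359, edgeR unadjusted p = 0.0485, adjusted p = 0.461), and 0.34 without those libraries. Hmox1 measured 130.3 to 154 with HDL NPs and 76.8 to 114 without, a log2 fold change of 0.54 (SE 0.319, edgeR adjusted p = 0.490) that was 0.29 without those libraries. In all of these the EnzR EV mouse with a library low in Rn45s, replicate 2, was the one nearest to the EnzR EVs + HDL NPs mice.

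The other 7 genes overlapped between these groups. Gpx4 had a log2 fold change of 0.36 (SE 0.335, edgeR adjusted p = 0.619), and without the 3 libraries it lay on the other side of 0, at -0.20. Gclm (0.15) and Nqo1 (0.07) did the same, at -0.36 and -0.64. Gclc was 0.24, with values of 19.4, 12.2 and 13.8 in EnzR EVs + HDL NPs mice, and Acsl4 was -0.15, with 79.6, 72.2 and 100.6. Slc3a2 was -0.01 and Srxn1 -0.02. Without the 3 libraries Gclc was at 0.011, Acsl4 at 0.050, Slc3a2 at 0.18 and Srxn1 at 0.14.

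Split by Rn45s alone, regardless of group, Slc7a11 and Hmox1 separated the libraries fully. Slc7a11 was at 28.0 to 37.8 TMM CPM in the 3 libraries rich in Rn45s and at 57.8 to 93.0 in the other 6, and Hmox1 at 76.8 to 95.8 against 114 to 258. Of all genes, 17.9% lay lower in all 3 than in any of the 6. The other 8 genes overlapped, Txnrd1 with 90.6 to 130.0 against 90.4 to 108, because PBS replicate 1 was at 90.6. The r between level on the log2 scale and Rn45s share was -0.92 for Slc7a11, -0.85 for Gpx4, -0.84 for Nqo1, 0.83 for Acsl4, -0.81 for Gclm, -0.77 for Hmox1 and 0.64 for Txnrd1, and between -0.53 and 0.60 for Gclc, Slc3a2 and Srxn1 (n = 9 libraries that also differ in depth). Among the EnzR EV mice Txnrd1 was at 108, 125 and 130.0 TMM CPM where Rn45s took 1.15%, 14.2% and 42.7% of counts. The summed level of the neutrophil and granulocyte genes was lower in the same 3 libraries, as given above, so that Slc7a11 and Hmox1 were low where that sum was low. S100a8 and S100a9 were the largest terms of the sum, and not every gene of the list followed it. Mpo was at its highest in EnzR EVs replicate 1, at 1673 TMM CPM, against at most 1209 in PBS and 1048 in EnzR EVs + HDL NPs mice. What the Rn45s share or these markers contributed to the group differences was not tested beyond the values without those libraries.

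**Figure D3:**
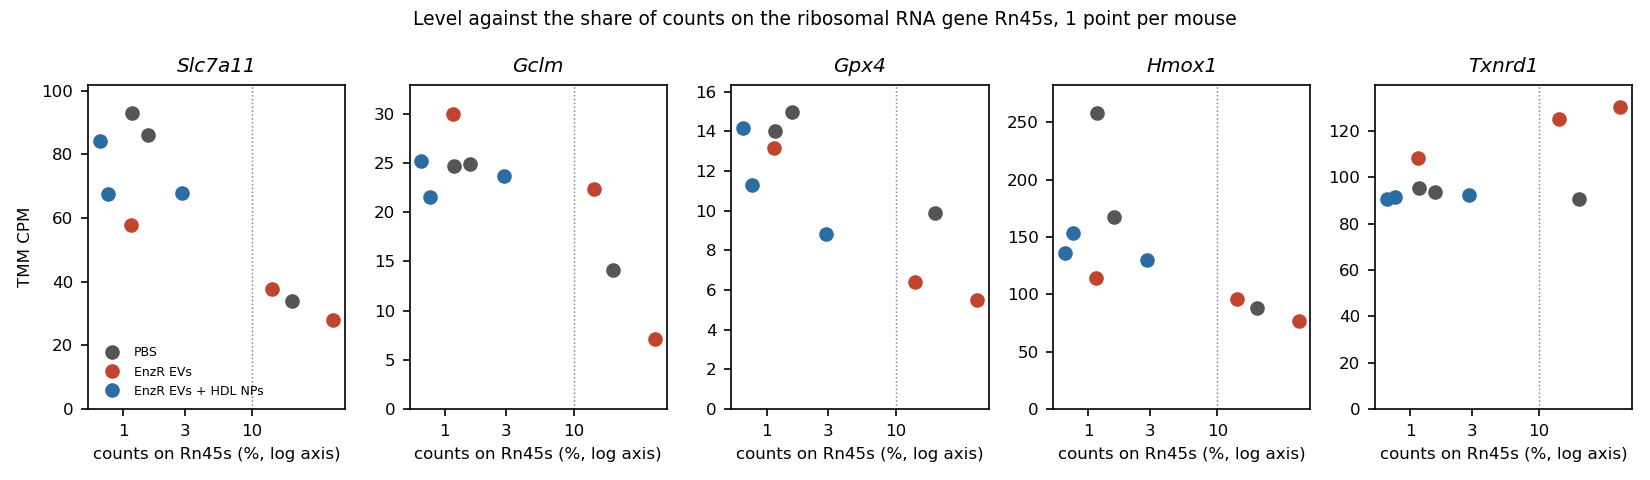
TMM CPM of 5 of the genes (linear axes from 0) against the percent of counts on Rn45s (log axis), 1 point per mouse, coloured by group, with a dotted line at 10%. Slc7a11 and Hmox1 are lower in all 3 libraries right of the line than in the 6 left of it. For Txnrd1 the PBS library right of the line, at 90.6, sits with the PBS libraries left of it.

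The upstream regulators were expressed in all mice. Nfe2l2 measured 103, 178 and 167 TMM CPM in PBS, 69.1, 170 and 106 in EnzR EV and 160.3, 183 and 147 in EnzR EVs + HDL NPs mice. It was again lowest in the 3 libraries rich in Rn45s, and its log2 fold changes were -0.36, 0.13 and 0.49 in the order of the comparisons above, with edgeR adjusted p-values of 0.928, 1.00 and 0.500. Without those libraries the Nfe2l2 values were -0.019, -0.076 and -0.057, the last 2 on the other side of 0. Keap1, the adaptor that marks NRF2 for degradation, lay between 34.6 and 44.4 in every mouse, and Bach1 between 222 and 297. Their log2 fold changes were between -0.08 and -0.01. Without those libraries they were 0.083, -0.12 and -0.20 for Keap1 and -0.047, 0.020 and 0.067 for Bach1, in the same order, so neither had 1 direction across settings. NRF2 activity is set largely at the protein level, which these libraries do not measure.

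Around the 10, 8 lists of related genes held 76 genes, of which 73 were tested and 0 were called in any comparison. In EnzR EVs against PBS 1 of the 73 had an unadjusted p under 0.05, where 3.47% of all genes did. This was Atf4, the stress transcription factor that drives Slc7a11 and other amino acid genes, at 238, 243 and 239 TMM CPM in PBS and 173, 189 and 162 in EnzR EV mice. All EnzR EV mice lay lower (groups did not overlap for 7.96% of all genes), with a log2 fold change of -0.46 (SE 0.156, edgeR unadjusted p = 0.0146, adjusted p = 0.928), and -0.34 without the libraries rich in Rn45s. Of 9 tested genes in the list of ATF4 and its targets, 7 had log2 fold changes above 0, with a median of 0.18. Of all genes, 46.5% were above 0. Without the libraries rich in Rn45s 6 of the 9 were above 0, with a median of 0.15. In EnzR EVs + HDL NPs against PBS the single gene of the 73 under 0.05, where 2.13% of all genes were, was Tfrc, the transferrin receptor that imports iron, at a log2 fold change of -0.44 (SE 0.187, edgeR adjusted p = 1.00). Its groups overlapped, at 67.3 to 88.8 TMM CPM against 84.8 to 126 in PBS, and without PBS replicate 1 and the other libraries rich in Rn45s it was at -0.27 and no longer under that p (edgeR unadjusted p = 0.0966).

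In EnzR EVs + HDL NPs against EnzR EVs, 8 of the 73 had an unadjusted p under 0.05, all lower with HDL NPs. Of all genes, 10.6% were under that p in either direction and 6.97% as lower. Gpx1, the abundant cytosolic glutathione peroxidase, had the smallest p. It measured 543, 684 and 507 TMM CPM with HDL NPs and 1574, 851 and 959 without, and did not overlap. Its log2 fold change was -0.96 (SE 0.288, edgeR unadjusted p = 0.00691, adjusted p = 0.461), and -0.56 without the 3 libraries rich in Rn45s. Slc7a5, another amino acid transporter that pairs with Slc3a2, was at 5.73 to 8.33 against 10.3 to 28.0, a log2 fold change of -1.23 that was -0.57 without those libraries. Gpx3, the secreted glutathione peroxidase, was at 4.05 to 6.43 against 7.24 to 11.6, a log2 fold change of -0.86 that was -0.54 without them. Mafg, the small partner protein of NRF2 (-1.07), Dhodh, which protects mitochondrial membranes from lipid peroxides (-1.02), and Txn2, mitochondrial thioredoxin (-0.98), overlapped between groups. Without the 3 libraries Mafg (0.22) and Txn2 (0.00) were not lower, and Dhodh was at -0.13.

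The heme and iron list, which surrounds Hmox1, had all 10 of its genes below 0 in EnzR EVs against PBS, with a median of -0.38, where 46.5% of all genes were above 0. The summed erythroid markers were at 120 to 280 TMM CPM in PBS, 69.6 to 131 in EnzR EV and 58.5 to 363 in EnzR EVs + HDL NPs mice, and the marrow macrophage sums were those given beside Hmox1. Their part in the list's values was not tested. In EnzR EVs + HDL NPs against EnzR EVs 9 of the 10 were above 0, with a median of 0.25, where 52.8% of all genes were. None of these genes was called or had an unadjusted p under 0.05 in these 2 comparisons. Without the libraries rich in Rn45s 9 of 10 stayed below 0 in the first, with a median of -0.14, and 3 of 10 were above 0 in the second. EnzR EVs + HDL NPs against PBS had 7 of the 10 below 0, with a median of -0.15, and without those libraries 8 of 10, with a median of -0.30.

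**Figure D4:**
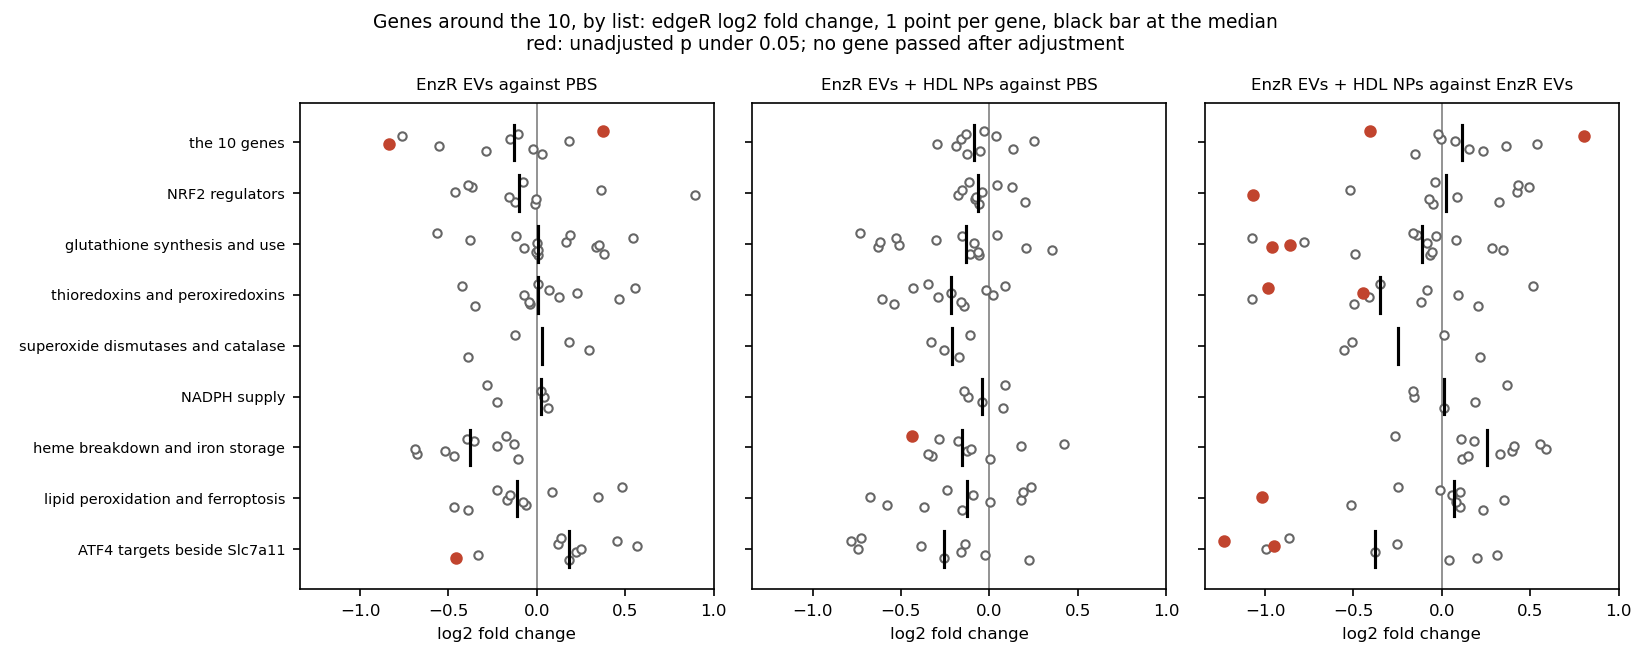
edgeR log2 fold changes of the 10 genes and of the tested genes in the 8 surrounding lists, 1 point per gene, with a black bar at each list's median and 1 panel per comparison. Red points have an unadjusted p under 0.05. The heme and iron list lies left of 0 in EnzR EVs against PBS (median -0.38) and mostly right of it in EnzR EVs + HDL NPs against EnzR EVs (0.25), and no gene passed after adjustment.

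For 3 of the genes, those whose levels followed them most closely over the 9 libraries were read from all 12553 as a description. Closest to Hmox1 were Epb4.1l3 (Pearson r 0.977), the integrin gene Itgad (0.964) and Timd4 (0.957), a receptor of tissue macrophages for dying cells; in the 6 libraries low in Rn45s these r were 0.965, 0.978 and 0.968. Closest to Slc7a11 were Map3k15 (0.976), Ovgp1 (0.975) and the calcium channel gene Orai2 (0.973), with 0.901, 0.833 and 0.813 in the 6. Closest to Gpx4 were Stfa1 (0.977), a cysteine protease inhibitor, Wdr45l (0.973) and 4930471M23Rik (0.972), with 0.961, 0.918 and 0.896. The points share group, depth and Rn45s share.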

How the data were processed

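CD11b+ marrow cells of 9 mice were sequenced as total RNA. The authors deposited raw counts per gene, not normalized; the submitters' notes name cutadapt 1.13, STAR, HTSeq 0.6.1p1, DESeq2 and mm10, and the methods state that rRNA reads were filtered. Here counts were fitted with edgeR 4.0.16 in R 4.3.3: TMM factors, the default low-count filter (12553 of 23337 genes), a robust quasi-likelihood fit to all 9 libraries and Benjamini-Hochberg adjustment at 0.05. Each of the 10 was also tested by exact permutation of mean log2 CPM (prior count 2), two-sided. DESeq2 1.42.0, limma 3.58.1 (voom) and other scalings, filters and subsets were alternatives. The 10 genes and the lists were chosen with earlier results of these data known. Named besides the 10 were Nfe2l2, Keap1 and Bach1, up to 6 listed genes per comparison with the smallest unadjusted p under 0.05, and the 3 genes most like Gpx4, Slc7a11 and Hmox1. Sepp1 was also named, from the selenoprotein list, which was chosen after values had been seen. Same-numbered PBS and EnzR EV libraries deviated together (r = 0.473, 0.492 and 0.131), but so did PBS 3 with EnzR EVs 2 (0.429) and PBS 2 with EnzR EVs 3 (0.156); a fit with the replicate number as a block was an alternative. A floor of 3 counts was 0.160 to 1.65 TMM CPM, for counting error only. Coordinates and transcript lengths came from GENCODE M21 (GRCm38). The fits were tested on simulated data.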

Additional observations from a re-analysis of the deposited data

How the results depend on the processing

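Of the 10 genes 0 were called in any comparison under any of the alternatives, and so were 0 of the 73 tested genes of the surrounding lists. The 30 log2 fold changes of the 10 genes gave 567 values under the alternatives, of which 513 kept their direction and 54 did not, and 13 fold changes never changed direction. Those of Txnrd1, Slc7a11 and Hmox1 kept theirs throughout in EnzR EVs against PBS (0.18 to 0.48, -1.09 to -0.52 and -1.15 to -0.41) and in EnzR EVs + HDL NPs against EnzR EVs (-0.51 to -0.16, 0.34 to 1.11 and 0.29 to 0.75); edgeR, DESeq2 and voom adjusted p-values of these ran from 0.277 to 1.00 in the first and from 0.0878 to 0.958 in the second. With the replicate number as a block, Txnrd1 was at 0.37, Slc7a11 at -0.75 and Hmox1 at -0.78 in EnzR EVs against PBS, and the block changed no call among the 10 or the lists. Over all genes, edgeR called 1 in that comparison with the block and 10 without the libraries rich in Rn45s, against 0, none of them among the 10 or the lists. Without those libraries EnzR EVs replicate 2 alone stands for its group and is assumed to vary like the other groups. In the other comparisons the deviations of same-numbered libraries were mixed, with r from -0.18 (PBS and EnzR EVs + HDL NPs replicates 3) to 0.29 (replicates 2 of the same groups).

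Log2 fold changes on the other side of 0 were these, and the cause was not tested. In EnzR EVs against PBS, Acsl4 was at -0.14 by library size only and -0.0078 with no filter, and Gclm at 0.034 by voom and 0.28 without the libraries rich in Rn45s. For EnzR EVs + HDL NPs against PBS, library size only gave 0.0097 for Gclc and 0.028 for Txnrd1, and without the libraries rich in Rn45s Slc7a11 was at -0.29, Acsl4 at 0.13, Gclm at -0.078 and Nqo1 at -0.12. With those libraries left out, EnzR EVs + HDL NPs against EnzR EVs gave -0.20 for Gpx4, 0.18 for Slc3a2, 0.050 for Acsl4, -0.36 for Gclm, -0.64 for Nqo1 and 0.14 for Srxn1. Library size only gave 0.24 for Slc3a2, 0.094 for Acsl4 and 0.18 for Srxn1, voom 0.018 for Slc3a2 and 0.021 for Srxn1, no filter 0.041 for Slc3a2 and 0.013 for Srxn1, DESeq2 0.00038 for Slc3a2, and a minimum of 10 counts in every library 0.0053 for Slc3a2.

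Leaving out 1 mouse at a time crossed 0 for 14 fold changes. In EnzR EVs against PBS the values ran from -0.086 to 0.27 for Acsl4, -0.38 to 0.29 for Gclm, -0.61 to 0.49 for Nqo1 and -0.18 to 0.029 for Srxn1. For EnzR EVs + HDL NPs against PBS they ran from -0.29 to 0.28 for Slc7a11, -0.28 to 0.13 for Acsl4, -0.27 to 0.075 for Gclc, -0.080 to 0.27 for Gclm, -0.13 to 0.57 for Nqo1 and -0.61 to 0.12 for Hmox1. For EnzR EVs + HDL NPs against EnzR EVs they ran from -0.12 to 0.048 for Slc3a2, -0.17 to 0.51 for Gclm, -0.31 to 0.87 for Nqo1 and -0.16 to 0.051 for Srxn1.

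In EnzR EVs against PBS, the genes of the 10 whose groups did not overlap numbered 2 by upper quartile factors (Gclc lower, Txnrd1 higher) and 2 by library size only (Slc3a2 and Srxn1, both lower), against 1 by TMM; this alternative was chosen after seeing the data. The minimum of 10 counts in every library removed Nqo1 and gave no value for it. Of the 10 genes Nqo1, Srxn1 and Gpx4 had the fewest counts in EnzR EVs replicate 1, with 0, 10 and 10. The part of depth in their values was not tested. With 3 mice a group, and 2 of the 3 libraries rich in Rn45s in 1 group, the EV treatment and library composition cannot be fully told apart.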

Other observations

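Gpx4 and Txnrd1 are selenoproteins, so the genes of that class were read from the same fit as a description, on a list of 19 genes, these 2 included, chosen after values had been seen. All 19 were tested and none was called. In EnzR EVs + HDL NPs against PBS 18 of the 19 had log2 fold changes below 0, with a median of -0.25, where 51.1% of all genes were below 0 and their median was -0.01. By library size only 16 of 19 were below 0 (median -0.20), and without the libraries rich in Rn45s 17 of 19 (median -0.13). In EnzR EVs against PBS 10 of the 19 were below 0, with a median of -0.04, where 53.5% of all genes were below 0. The count and median were 12 and -0.21 by library size only and 8 and 0.044 without those libraries. In EnzR EVs + HDL NPs against EnzR EVs 13 of the 19 were below 0, with a median of -0.22, where 47.2% of all genes were. The count and median were 10 and -0.027 by library size only and 13 and -0.17 without those libraries. Here 6 of the 19 had an edgeR unadjusted p under 0.05, all lower, as did 6.97% of all genes as lower. In EnzR EVs against PBS 1 was under that p as lower and 1 as higher. In EnzR EVs + HDL NPs against PBS 1 was, as lower. The difference between the comparisons was not tested.

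Sepp1, which encodes selenoprotein P, a secreted carrier of selenium, was lower in both EV groups. It measured 388, 318 and 411 TMM CPM in PBS mice, 254, 237 and 224 in EnzR EV mice and 247, 266 and 215 in EnzR EVs + HDL NPs mice. Among the libraries low in Rn45s, EnzR EVs replicate 2 was at 237 and PBS replicates 2 and 3 were at 318 and 411. Neither EV group overlapped with PBS, as was so for 7.96% of all genes with EnzR EVs and 13.2% with EnzR EVs + HDL NPs, and the PBS mice are shared between these comparisons. The summed marrow macrophage markers were also lower in EnzR EV mice than in all PBS mice (662 to 813 against 851 to 1539 TMM CPM) and at 761 to 974 with HDL NPs, and their part in the Sepp1 values was not tested. The log2 fold changes were -0.64 (SE 0.162, edgeR unadjusted p = 0.00237) and -0.62 (SE 0.161, edgeR unadjusted p = 0.00299), and neither passed after adjustment over all genes (adjusted p = 0.928 and 1.00).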
